A study of Prunus sibirica with 6 samples.

Results

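The FAR1 family of Siberian apricot (Prunus sibirica) flower buds was examined in 6 RNA-seq libraries, 3 from a male sterile clone (clone No. 1) and 3 from a male fertile clone (clone No. 60). Members were the transcript clusters that the submitters' regulator table assigns to the family FAR1, taken once each. They numbered 40 of the 1508 clusters in that table, from 41 entries, since 1 cluster has 2 entries. The rule used the family name only and no expression value. Whole buds were labelled as being at the microspore stage, the phase in which young pollen grains form inside the anther. Each group is 1 clone, buds came from the sunny outer canopy, and no treatment or sampling date per library is named, so fertility cannot be told apart from whatever else distinguishes the clones. The 3 samples of a clone are described as biological replicates without naming their trees, so p-values reflect only how these 3 libraries per clone vary, which may be technical.

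FAR-RED ELONGATED HYPOCOTYL 3 (FHY3) and FAR-RED IMPAIRED RESPONSE 1 (FAR1) are transcription factors that arose from Mutator-type transposases, enzymes that once moved DNA elements. In Arabidopsis they switch on the genes whose products carry the far-red light receptor phytochrome A into the nucleus, and FHY3 also acts in the clock, in chloroplast division and in ending the floral meristem. Their relatives, the FAR1-RELATED SEQUENCE (FRS) proteins, share a zinc-finger domain that binds DNA, a transposase core and a SWIM zinc finger, while shorter relatives keep the DNA-binding end alone.

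The family split by annotated domains. A SWIM zinc finger was annotated in 26 members and in 0 of the 1468 other regulators. A Mutator transposase domain was annotated in 16 members, 15 of them with SWIM, and in 1 regulator outside the family. The longest predicted coding stretch had a median length of 2269.5 bases in members with SWIM (222 to 2694) and 736.5 bases in the 14 without (411 to 2717). Clusters without SWIM were as short as 549 bases in all, and whether a missing SWIM reflects an incomplete cluster was not tested. Swiss-Prot, a curated protein database, gave 13 best-hit names. FRS5 named 22 of the 40 clusters, FRS6 named 3, and FAR1, FRS3, FRS10 and FRS11 named 2 each, so the clusters of one name are told apart here by their identifiers. These hits are mostly proteins of other species and do not show that a cluster is the counterpart of its namesake. Read counts that were not whole (off by 0.005 or more), as arise when reads are divided among similar clusters, occurred in at least 1 library for 14 members and in all 6 for FHY3, so paralogs may share reads. No sequence of these clusters is printed, because the files used here hold none.

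The libraries held 957196 to 1122298 estimated counts in the sterile and 1242099 to 1424835 in the fertile group over the regulator table, and the depth implied for whole libraries was 16.2 to 19.0 and 22.1 to 25.3 M fragments. Fertile replicate 1 stood apart from the other fertile libraries, with a chi-square per degree of freedom of 11.5 and 12.3 against them, where other pairs within a clone gave 1.57 to 1.77. Floral bud regulators were present, among them a SEPALLATA 1 cluster at 109 to 115 FPKM in sterile and 109 to 123 in fertile buds. DROOPING LEAF, a carpel factor, stood at 69.1 to 70.5 and 32.6 to 36.2. Of 6 clusters in this floral list, 5 were tested, with edgeR calls of 3 higher and 2 lower in sterile buds (background 28.0% and 28.9%). DROOPING LEAF was among the higher, and an FBP2 cluster, at 90.9 ± 9.6 against 109 ± 3.12 FPKM (SD, n = 3 each), among the lower. Of 7 clusters in the tapetum marker list (the tapetum is the anther layer that feeds pollen), 5 were tested. Their edgeR calls were 3 higher and 2 lower in sterile buds (background over all tested regulators 28.0% and 28.9%). The list's summed level was 200 to 208 FPKM in sterile against 80.6 to 84.9 in fertile buds, and bHLH10 alone stood at 135 ± 2.65 against 24.9 ± 0.87 FPKM (SD, n = 3 each). The MALE STERILITY 1 cluster, 1 of those 3 called higher, held 170 counts over the sterile and 2 over the fertile libraries. It passed the low-count filter through its sterile counts alone, so its call is no separate support. One AMS cluster was higher in sterile buds (Cluster-6671.7223, 0.52) and another lower (Cluster-6671.14745, -0.28), as was a MYB35 cluster (Cluster-6671.4670, -0.68), in log2 fold change. The part of these marker differences in the results below was not tested, and in whole buds fewer cells of a type and less RNA per cell cannot be told apart.

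The FAR1 family was expressed at moderate levels in both clones, and its share of the regulator counts differed little between them. FPKM corrects fragments for cluster length and for library size, so levels of different clusters can be compared. The median member stood at 5.0 FPKM over all libraries, the 35.9th percentile of the regulators. Mean levels were at least 10 FPKM in 8 members, between 2 and 10 in 28 and below 2 in 4. All 40 members had counts in each sterile library, and 39 in each fertile library. Together they took 1.51%, 1.51% and 1.52% of the regulator counts in sterile buds, and 1.32%, 1.46% and 1.45% in fertile buds. The sterile libraries all lay above the fertile ones, at a mean of 1.51% ± 0.0053 against 1.41% ± 0.0762 (SD, n = 3 each; two-sided exact permutation p = 0.1, the smallest that 3 against 3 allows). The lowest of these shares was that of fertile replicate 1, in which 22 of 38 tested members were the lowest of the fertile libraries. In FPKM, which is scaled to whole libraries, the members summed to 269 ± 2.11 in sterile and 228 ± 16.8 in fertile buds. That is a ratio of 1.18, with all sterile libraries above all fertile ones (SD, n = 3 each; two-sided exact permutation p = 0.1).

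Differences between clones were tested on the estimated counts of the whole regulator table with edgeR's quasi-likelihood test, adjusted by the Benjamini-Hochberg method over 1380 clusters. Fold changes are sterile over fertile, on a scale that holds the bulk of the regulators level (TMM, trimmed mean of M-values). FPKM are scaled to whole libraries, and on that scale sterile values stand slightly higher. Of 38 members tested, 13 rose and 7 fell in sterile buds at an adjusted p of 0.05, and 18 were not called. The background over all tested regulators was 28.0% higher and 28.9% lower, against 34.2% and 18.4% of the tested members. Called in either direction were 52.6% of members, against a background of 57.0%. The members' median log2 fold change was 0.13, beside 0.01 for all tested regulators, and their median absolute log2 fold change was 0.24, beside 0.31. A change of at least 2-fold was called in 2 members (5.26%), against a background of 13.4%. Of these, Cluster-6671.22144 passed the low-count filter through its sterile counts alone. The other 36 tested members lay within 0.7 of zero on the log2 scale. In counts scaled by library (CPM) the libraries of the clones did not overlap in 20 members (52.6%), against a background of 63.8%, and these were the 20 that were called.

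The balance of directions depended on the library scale. With the whole-library totals implied by counts, lengths and FPKM, 21 members were higher (background 41.1%) and 4 lower (background 21.5%), so that 84.0% of calls were higher in place of 65.0%. The median log2 fold change became 0.27 for the members and 0.15 for all tested regulators. In FPKM itself the libraries of the clones lay apart in 23 members with sterile higher (background 43.5%) and in 4 with sterile lower (background 21.6%). DESeq2 called 7 members higher (background 22.6%) and 6 lower (background 24.9%). Limma on log2(FPKM + 1) of the table of all clusters called 15 of 37 members higher (background 29.1%) and 2 lower (background 20.7%). Without sterile replicate 1 the number of lower calls was 4, and 12 were higher, with the share over all regulators in that fit not given here. In the authors' deposited table, 11 members had a q-value below 0.05 with sterile higher (background 25.8%) and 4 with sterile lower (background 19.1%).

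**Figure D1:**
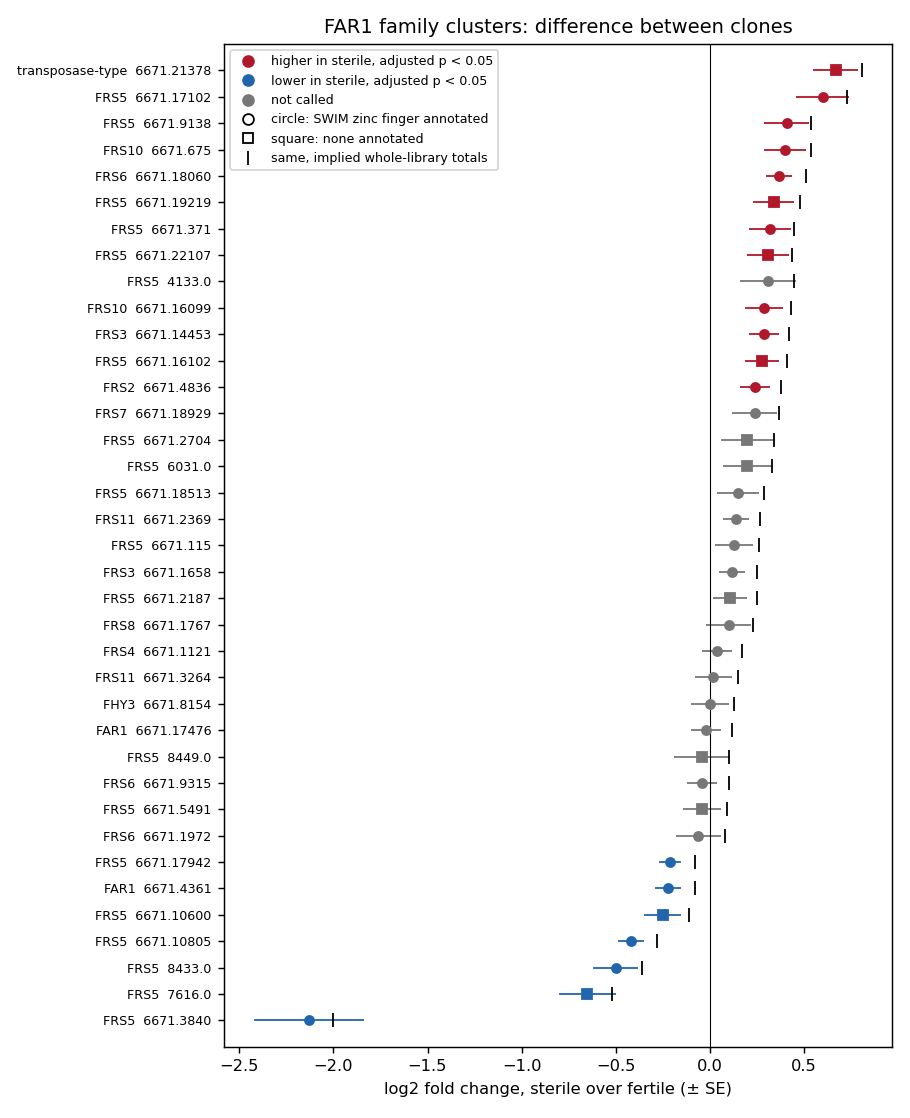
Log2 fold change, sterile over fertile, with its SE for 37 tested FAR1 family clusters, coloured by call and shaped by whether a SWIM zinc finger is annotated; the black ticks give the same difference with implied whole-library totals. Of 38 tested members 13 were called higher and 7 lower, and every tick lies to the right of its point; FRS5 (Cluster-6671.22144), at 0 counts in the fertile libraries, is not drawn.

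**Figure D2:**
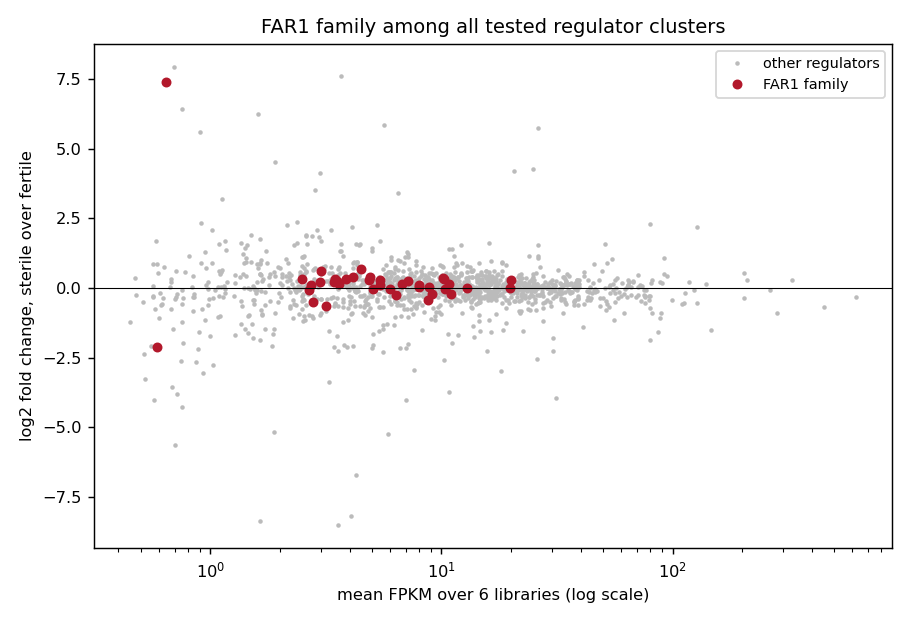
Fitted log2 fold change against mean FPKM (log scale) for the 1380 tested regulator clusters, with the 38 FAR1 family members in red. Most members lie near zero, between about 2 and 20 FPKM, and the 2 far from zero are members of low level; fitted values of clusters at or near 0 counts in a clone depend on the fit's prior count.

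The clusters closest to the founding phytochrome A factors showed little difference. FHY3 (Cluster-6671.8154), the second most abundant member, stood at 20.6, 20.2 and 21.0 FPKM in sterile buds, and at 14.8, 21.2 and 20.4 in fertile buds. The groups overlapped, and fertile replicate 1 alone was low. Its log2 fold change was 0.00 ± 0.10 (SE), with a 95% interval of -0.22 to 0.22 (edgeR adjusted p = 0.989). Without fertile replicate 1 it was -0.13 and passed the test (edgeR adjusted p = 0.000948), while on the implied whole-library scale it was 0.13, not called.

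FAR1 named 2 clusters. The more abundant (Cluster-6671.17476) stood at 14.0, 13.3 and 13.2 FPKM in sterile and 10.98, 12.3 and 14.0 in fertile buds. These groups overlapped, and the log2 fold change was -0.02 ± 0.08 (95% interval -0.18 to 0.14, edgeR adjusted p = 0.856). The other (Cluster-6671.4361) stood at 10.7, 10.9 and 10.4 FPKM in sterile and 11.8, 11.5 and 10.6 in fertile buds. It fell in sterile buds relative to the regulators, by 0.22 ± 0.07 on the log2 scale (edgeR adjusted p = 0.0104), and its FPKM overlapped between the clones. That call was lost without sterile replicate 1 (-0.20), with implied whole-library totals (-0.08) and in limma on log2(FPKM + 1) (-0.07). The ratio of FHY3 to the first FAR1 cluster in FPKM needs no library scale. It was 1.47, 1.53 and 1.59 in sterile libraries and 1.34, 1.73 and 1.46 in fertile ones, overlapping ranges with a two-sided exact permutation p of 0.9.

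**Figure D3:**
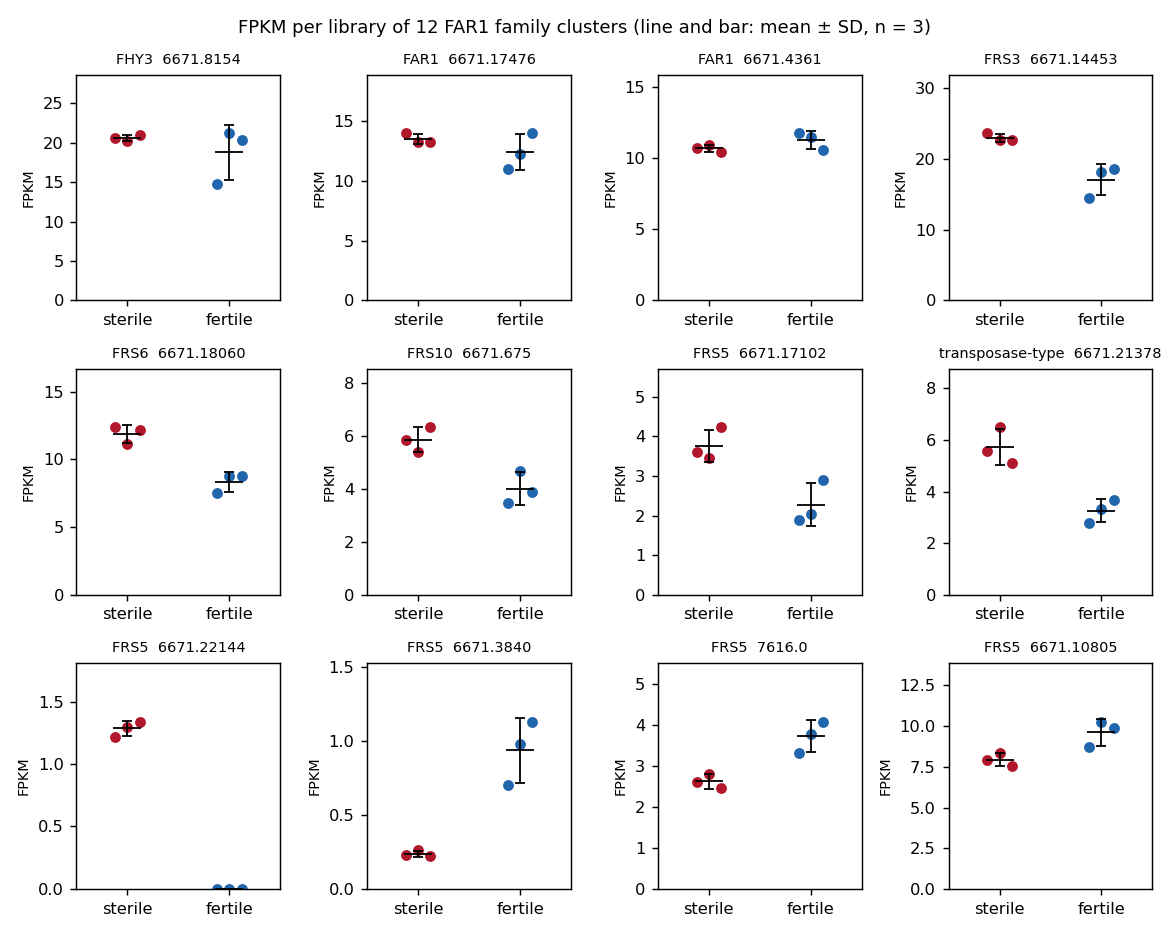
FPKM in each library for 12 FAR1 family clusters, sterile left and fertile right, with mean ± SD (n = 3). FHY3 and both FAR1 clusters overlap between the clones, FRS3, FRS6, FRS10 and both following clusters are higher in all 3 sterile libraries, and FRS5 (Cluster-6671.22144) is at 0 in all 3 fertile ones.

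Among the FRS clusters with a name other than FRS5, 5 rose and the others were not called. Those called higher were 2 of 2 named FRS10, 1 of 2 named FRS3, 1 of 3 named FRS6 and the 1 named FRS2. The 2 named FRS11 and the 1 each named FRS4, FRS7 and FRS8 were not called. The background over all tested regulators was 28.0% higher and 28.9% lower, and whether these names differ from it was not tested. FRS3 (Cluster-6671.14453) was the most abundant member of the family, at 23.7, 22.7 and 22.7 FPKM in sterile buds against 14.5, 18.2 and 18.6 in fertile buds. The groups did not overlap, fertile replicate 1 was again the lowest, and the log2 fold change was 0.29 ± 0.08 (edgeR adjusted p = 0.0033), or 0.20 without that library. A second FRS3 cluster (Cluster-6671.1658), at 8.69 ± 0.352 and 7.27 ± 0.693 FPKM (SD, n = 3 each), was not called (0.12 ± 0.07). Its FPKM groups lay apart, and it passed with implied whole-library totals (0.25, edgeR adjusted p = 0.0103) and in limma on log2(FPKM + 1) (0.23, adjusted p = 0.0465).

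Both FRS10 clusters rose. Cluster-6671.675 stood at 5.84, 5.37 and 6.31 FPKM in sterile and 3.47, 4.68 and 3.86 in fertile buds (0.40 ± 0.11, edgeR adjusted p = 0.00464). Cluster-6671.16099 stood at 5.63, 5.29 and 5.87 FPKM in sterile and 4.04, 4.58 and 3.77 in fertile buds (0.29 ± 0.10, edgeR adjusted p = 0.0225). All sterile libraries lay above all fertile ones in both. The first lost its call without sterile replicate 3 (0.32), and the second without sterile replicate 3 (0.23), without fertile replicate 3 (0.22) and with DESeq2 (0.29).

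FRS6, which with FRS8 delays flowering in Arabidopsis, named 3 clusters. One (Cluster-6671.18060) stood at 12.4, 11.1 and 12.2 FPKM in sterile buds against 7.49, 8.76 and 8.77 in fertile buds, with no overlap. It rose by 0.37 ± 0.07 on the log2 scale (edgeR adjusted p = 0.000227). Another (Cluster-6671.9315), at 10.8 ± 0.451 against 10.0 ± 0.794 FPKM, was not called (-0.04 ± 0.08), although both match the same predicted Prunus mume protein. Summed, the pair gave 0.21 ± 0.07 (edgeR adjusted p = 0.0115), and whether they are parts, alleles or copies of 1 gene was not tested. The third (Cluster-6671.1972), at 2.76 ± 0.269 and 2.60 ± 0.295 FPKM, was not called, nor was FRS8 (Cluster-6671.1767) at 2.97 ± 0.329 and 2.51 ± 0.382 (0.10 ± 0.12).

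FRS2 (Cluster-6671.4836) stood at 8.16, 8.44 and 7.85 FPKM in sterile buds and 5.76, 6.76 and 6.22 in fertile buds. Its groups did not overlap, and it rose by 0.24 ± 0.08 (edgeR adjusted p = 0.0173). Its call was lost with DESeq2 (0.23), without sterile replicate 2 (0.18) and without fertile replicate 3 (0.23). FRS4, which acts with FHY3 on a chloroplast division gene in Arabidopsis, stood at 9.37 ± 0.558 and 8.28 ± 0.808 FPKM and was not called (0.04 ± 0.08). FRS7, a repressor of flowering and of clock output in Arabidopsis, stood at 4.0 ± 0.474 and 3.08 ± 0.34 FPKM and was not called (0.24 ± 0.12). Its FPKM groups lay apart, and it passed with implied whole-library totals (0.37, edgeR adjusted p = 0.015). Of the FRS11 clusters, the more abundant (Cluster-6671.2369) stood at 11.2, 12.4 and 11.9 FPKM in sterile and 8.70, 10.3 and 10.2 in fertile buds. It was not called at 0.14 ± 0.07, and passed with implied whole-library totals (0.27, edgeR adjusted p = 0.00799) and in limma on log2(FPKM + 1) (0.26, adjusted p = 0.0341). The other FRS11 cluster (Cluster-6671.3264) was at 0.02 ± 0.10.

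The FRS5-named clusters went both ways. Of 21 tested, 7 rose (33.3%, background 28.0%), 6 fell (28.6%, background 28.9%) and 8 were not called. Among those with a SWIM zinc finger, Cluster-6671.17102 rose most, by 0.60 ± 0.14 (edgeR adjusted p = 0.00185), with 3.61, 3.46 and 4.23 FPKM in sterile against 1.89, 2.04 and 2.90 in fertile buds. Cluster-6671.9138 rose by 0.41 ± 0.12 (4.93 ± 0.345 against 3.38 ± 0.625 FPKM, edgeR adjusted p = 0.00775), or 0.32 and not called without sterile replicate 3. Cluster-6671.371 rose by 0.32 ± 0.11 (4.01 ± 0.163 against 2.91 ± 0.411 FPKM, edgeR adjusted p = 0.0235). Its call was lost without sterile replicate 2 (0.30), sterile replicate 3 (0.26), fertile replicate 1 (0.23) or fertile replicate 3 (0.31), and with DESeq2 (0.31). The groups of all 3 clusters lay apart.

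In the other direction, Cluster-6671.10805, one of the longest members at 6072 bases and matched by its protein hit to FRS12 of peach, whose Arabidopsis namesake is the partner of FRS7, stood at 7.91, 8.33 and 7.54 FPKM in sterile and 8.69, 10.3 and 9.88 in fertile buds. It fell by 0.42 ± 0.07 on the log2 scale (edgeR adjusted p = 6.13e-05), with all sterile libraries below all fertile ones. Cluster-8433.0 stood at 2.56, 2.26 and 2.49 FPKM in sterile and 3.09, 2.95 and 3.31 in fertile buds. It fell by 0.50 ± 0.12 (edgeR adjusted p = 0.0015), a call lost in limma on log2(FPKM + 1) (-0.26, adjusted p = 0.0613). Cluster-6671.17942, the longest member at 7086 bases, fell by 0.21 ± 0.06 (edgeR adjusted p = 0.00723). Its FPKM overlapped, at 8.90 ± 0.0929 in sterile and 9.38 ± 0.585 in fertile buds, and the call was lost without sterile replicate 1 (-0.19), with implied whole-library totals (-0.08) and in limma on log2(FPKM + 1) (-0.07).

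The lowest fold in the family was that of Cluster-6671.3840, which has SWIM and Mutator transposase domains. It lay outside the rule for named clusters, being under 1 FPKM on average in both clones, and was chosen after its values were seen. It stood at 0.23, 0.26 and 0.22 FPKM in sterile buds (30 counts in all) and 0.70, 0.98 and 1.13 in fertile buds. All sterile libraries lay far below all fertile ones, and the log2 fold change was -2.13 ± 0.29 (edgeR adjusted p = 8.23e-06), which is 4.38-fold lower. The remaining SWIM members named FRS5, Cluster-6671.115, Cluster-6671.18513 and Cluster-4133.0, were not called at 0.13, 0.15 and 0.31. Of these, Cluster-6671.18513 and Cluster-4133.0 passed with implied whole-library totals (0.29 and 0.45).

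Members without an annotated SWIM zinc finger also went both ways. Of 12 tested, 5 rose (41.7%) and 2 fell (16.7%), and of the 26 with SWIM 8 rose (30.8%) and 5 fell (19.2%), beside backgrounds of 28.0% and 28.9%. The median log2 fold changes were 0.20 and 0.12, and the difference between these subsets was not tested. Of the 10 tested clusters named FRS5 with a short coding stretch (471 to 861 bases), 3 rose (30.0%), 2 fell (20.0%) and 5 were not called. Their most abundant cluster, Cluster-6671.22107, stood at 13.1, 11.1 and 11.3 FPKM in sterile against 8.61, 8.59 and 8.52 in fertile buds, with no overlap (0.31 ± 0.11, edgeR adjusted p = 0.0203). Its call was lost without sterile replicate 1 (0.26), without fertile replicate 3 (0.29) and with DESeq2 (0.30). Cluster-6671.19219 rose by 0.34 ± 0.11 (4.48 ± 0.203 against 3.21 ± 0.199 FPKM, edgeR adjusted p = 0.0142). The call was lost without sterile replicate 2, sterile replicate 3 or fertile replicate 2 (0.29 each) and with DESeq2 (0.33). A second cluster matched to the same Prunus mume locus, Cluster-6671.2704, was not called at 0.20 ± 0.14, and passed with implied whole-library totals (0.34). Cluster-6671.16102 rose by 0.28 ± 0.09 (6.22 ± 0.13 against 4.65 ± 0.18 FPKM, edgeR adjusted p = 0.0131), a call lost with DESeq2 (0.27) and without fertile replicate 2 (0.23).

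Cluster-7616.0, whose protein hit is FRS1 of Prunus mume, stood at 2.60, 2.81 and 2.46 FPKM in sterile and 3.32, 3.78 and 4.08 in fertile buds. It fell by 0.65 ± 0.15 on the log2 scale (edgeR adjusted p = 0.00125), with the groups apart. Cluster-6671.10600 stood at 5.89, 5.65 and 6.88 FPKM in sterile and 6.68, 6.58 and 6.54 in fertile buds, and these overlapped. Its fall of 0.25 ± 0.10 was at the threshold (edgeR adjusted p = 0.0486). It was lost with the replicate block (-0.25, adjusted p = 0.06), DESeq2 (-0.26), table totals (-0.20), implied whole-library totals (-0.11) and limma on log2(FPKM + 1) (-0.09). It was also lost without sterile replicate 1 (-0.19), sterile replicate 2 (-0.22), fertile replicate 1 (-0.22), fertile replicate 2 (-0.26) or fertile replicate 3 (-0.27). The other short FRS5-named clusters, Cluster-6671.2187, Cluster-6671.5491, Cluster-6031.0 and Cluster-8449.0, lay between -0.04 and 0.20 and were not called. Of these, Cluster-6671.2187 and Cluster-6031.0 passed with implied whole-library totals (0.25 and 0.33).

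A member with a Mutator transposase domain and no SWIM zinc finger had the largest rise among tested clusters with counts in both clones. Cluster-6671.21378 matches FRS5-like of Prunus mume by its protein hit, while its Swiss-Prot hit is a fungal synthetase entry with a weak score (E-value 1.6e-13). It stood at 5.57, 6.49 and 5.12 FPKM in sterile buds against 2.77, 3.33 and 3.67 in fertile buds. All sterile libraries lay above all fertile ones, and the log2 fold change was 0.67 ± 0.12 (edgeR adjusted p = 8.53e-05), a 1.59-fold rise.

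A single member was detected in the sterile clone and not in the fertile one. FRS5 (Cluster-6671.22144), 1104 bases long with a coding prediction over its whole length, stood at 1.22, 1.30 and 1.34 FPKM in the sterile libraries and at 0 in all fertile libraries. Its counts summed to 56 for the sterile clone and to 0 for the fertile clone. Set against a floor of 3 counts for the 3 fertile libraries together, the observed sterile counts were 22.9-fold higher. That floor is 0.038 FPKM. It covers counting error in the fertile libraries only, and the 56 sterile counts are taken as observed. The cluster passed the low-count filter through its sterile counts alone, so its edgeR call (adjusted p = 4.24e-06) is no separate support. Whether the fertile clone lacks the gene, carries an allele assembled under another cluster or does not express it was not tested.

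The remaining pair fell below the low-count filter. Cluster-10645.1, named after a Nudix hydrolase by Swiss-Prot and FRS5-like by its protein hit, had 15 counts in sterile and 4 in fertile libraries, a ratio of 4.61 with an exact 95% binomial interval of 1.47 to 19.1. Cluster-8289.0 had 9 and 12 counts, a ratio of 0.922 (0.343 to 2.38). Both intervals pool the reads of a clone's libraries, so they cover counting error only and not the variation between libraries. DESeq2, run without that filter, called neither (2.21, adjusted p = 0.094, and -0.17, adjusted p = 0.925).

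Other light-signalling regulators in the table were read in the same fit, against the backgrounds of 28.0% higher and 28.9% lower. Phytochrome-interacting factors (PIFs) are bHLH proteins bound by light-activated phytochrome. A list of 6 bHLH clusters held 4 named as PIFs and 2 named SPATULA, a related carpel factor, and of the 6, 3 rose, 1 fell and 2 were not called (median log2 fold change 0.21). PIF4, a growth and temperature factor, stood at 8.98, 8.74 and 9.50 FPKM in sterile and 5.40, 5.61 and 5.84 in fertile buds, groups that did not overlap. It rose by 0.55 ± 0.08 (edgeR adjusted p = 1.1e-05). PIF1, a repressor of seed germination in the dark, rose by 0.30 ± 0.08 (8.92 ± 0.596 against 6.54 ± 0.505 FPKM, edgeR adjusted p = 0.00557). UNE10, also known as PIF8, rose by 0.53 ± 0.20 (edgeR adjusted p = 0.0309), and its call was lost without sterile replicate 2 (0.56), sterile replicate 3 (0.39), fertile replicate 2 (0.43) or fertile replicate 3 (0.42) and with DESeq2 (0.52). One cluster named SPATULA fell by 0.20 ± 0.07 (Cluster-6671.20134, edgeR adjusted p = 0.0253). That call was lost with table totals (-0.16), implied whole-library totals (-0.06), DESeq2 (-0.21) and limma on log2(FPKM + 1) (-0.05), and without sterile replicate 1 (-0.20), sterile replicate 2 (-0.20) or fertile replicate 2 (-0.18). A second (Cluster-6671.12393) was not called at 0.13 ± 0.09. PIF3, at 13.5 ± 0.246 and 12.9 ± 1.48 FPKM, was not called at -0.07 ± 0.07, and without fertile replicate 1 passed at -0.14 (edgeR adjusted p = 0.0188).

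Of 7 photomorphogenesis factors, which turn on the light-grown programme or restrain it, 3 rose, 1 fell and 3 were not called (median 0.32). HY5, the bZIP factor that promotes light-grown development, stood at 13.8, 12.9 and 13.5 FPKM in sterile against 9.25, 9.09 and 8.48 in fertile buds, with no overlap. It rose by 0.43 ± 0.08 (edgeR adjusted p = 0.000155). A B-box cluster named BBX21 by Swiss-Prot and BBX20 by its Prunus mume transcript hit (Cluster-6671.14305) rose by 0.32 ± 0.10 (edgeR adjusted p = 0.00977), or 0.23 and not called without sterile replicate 3 or fertile replicate 2. A BBX19 cluster (Cluster-8604.0) rose by 0.49 ± 0.16 (3.68 ± 0.215 against 2.35 ± 0.212 FPKM, edgeR adjusted p = 0.0138), a call lost with DESeq2 (0.49). A more abundant cluster of the same name (Cluster-6671.4881) was not called at 0.02 ± 0.13, with 6.06 ± 0.245 FPKM in sterile and 5.39 ± 1.0 in fertile buds. BBX32, a B-box protein that restrains light responses, fell by 1.00 ± 0.12 on the log2 scale (edgeR adjusted p = 2.02e-06), at 6.35, 6.77 and 6.92 FPKM in sterile and 13.9, 10.7 and 11.5 in fertile buds. HYH, a relative of HY5, was not called at -0.40 ± 0.20. BBX20 was not called at 0.35 ± 0.15, and passed without fertile replicate 1 (0.45) and with implied whole-library totals (0.49).

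A further list held 25 clusters, mostly of the SPL (squamosa promoter-binding-like) and ABI5 groups, with EIN3-type factors and LHY. It was drawn up after partners or targets of FHY3 and FAR1 in Arabidopsis, but took in whole groups by name. Which of its clusters correspond to such partners or targets was not tested, so its counts describe these groups. Of 22 tested, 5 rose, 4 fell and 13 were not called (median 0.02). With implied whole-library totals 11 rose, where the background over all tested regulators was 41.1% higher. Without sterile replicate 3 the number was 3, and the share over all regulators in that fit is not given here. ABI5, a factor of abscisic acid response that FHY3 activates in Arabidopsis, stood at 5.63, 5.84 and 5.50 FPKM in sterile against 2.63, 2.38 and 3.04 in fertile buds, with no overlap. It rose by 0.93 ± 0.13 (edgeR adjusted p = 1.17e-05). An SPL cluster with a weak Swiss-Prot hit to SPL12 and a Prunus mume transcript hit to SPL3 (Cluster-6671.1263) rose by 0.82 ± 0.11 (edgeR adjusted p = 3.65e-06). SPL6 (Cluster-6671.8122) fell by 0.75 ± 0.08 and SPL8, a factor of anther and pollen sac development, fell by 0.49 ± 0.07 (edgeR adjusted p = 2.72e-07 and 1.26e-05). These were picked by smallest p. Clusters not called included SPL5 (Cluster-6671.9754, -0.10 ± 0.07), whose Prunus mume transcript hit is SPL3. SPL17 (Cluster-6671.17781, 0.06 ± 0.08), with a transcript hit to SPL9, and LHY (0.24 ± 0.12) were not called either. An EIN3 cluster (Cluster-6671.7135) rose by 0.30 ± 0.06 (edgeR adjusted p = 0.000703). A DPBF3 cluster of the ABI5 group (Cluster-8439.0), 1 of the 4 that fell, held 1 count over the sterile libraries and 599 over the fertile ones. It passed the low-count filter through its fertile counts alone, so its edgeR call (adjusted p = 4.86e-12) is no separate support. Other clusters named DPBF3 were not called. Cluster-6671.13456, the most abundant of that name with a mean of 38.6 FPKM over all libraries, was at -0.08 ± 0.06. Cluster-6671.5755 was at 0.00 ± 0.09.

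**Figure D4:**
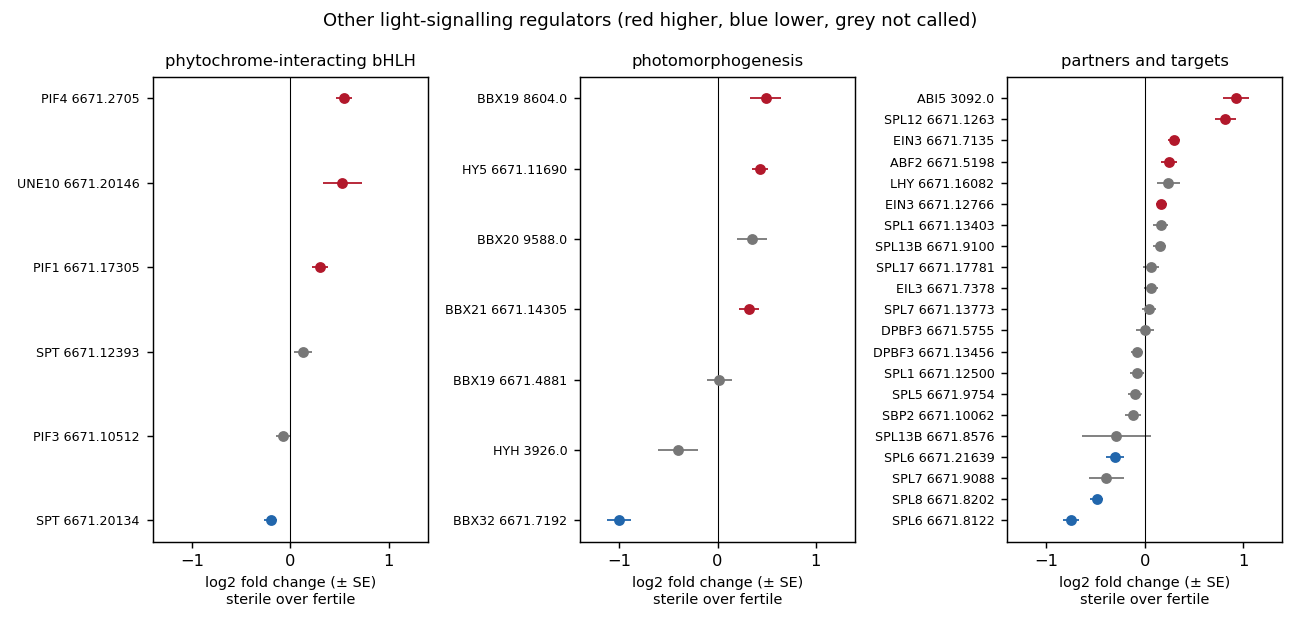
Log2 fold change, sterile over fertile, with its SE for tested clusters of the 3 light-signalling lists, coloured by call; clusters with 3 counts or fewer in a clone are not drawn. Calls stand on both sides of zero in each list, with PIF4, HY5 and ABI5 higher and BBX32 and SPL6 lower in sterile buds.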

How the data were processed

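Estimated counts of reads per transcript cluster were deposited by the authors for regulators only, with FPKM of the same clusters, per the file headers. A second deposited table held FPKM of 34377 clusters. The authors also deposited their own log2 fold changes, q-values and annotation hits there, per the file headers. The submitters' processing notes list CASAVA, RSEM and Bowtie2 with no roles. Assembler, build and strandedness: not given in the sources used here.

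Groups came from the sample labels. In R 4.3.3, edgeR 4.0.16 tested the rounded counts after filterByExpr and TMM (robust glmQLFit, glmQLFTest, Benjamini-Hochberg at 0.05). Each SE was derived from the F statistic. Alternatives used limma 3.58.1 on log2(FPKM + 1), where folds of low clusters are understated, keeping clusters that reach 1 FPKM in 3 or more libraries, and DESeq2 1.42.0. Whole-library totals were implied by a robust regression (count/FPKM against length). The scripts were tested on simulated data. Same-numbered libraries did not deviate together (r of 0.0164, 0.0267 and 0.00892). The members and lists were chosen with earlier results of these data known. Named were called members with a mean of at least 1 FPKM in a clone (at most 12 each way), members near 0 counts in a clone, the 5 most abundant and all named FAR1 or FHY3, and up to 6 per list by p. In the marker lists AGL8 and bHLH10 were kept from matching longer symbols, and the other terms matched any part of a Swiss-Prot description.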

Additional observations from a re-analysis of the deposited data

How the results depend on the processing

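Of the 20 called members, 7 kept their call in all 18 alternatives, Cluster-6671.3840 kept it in the 15 that tested it, 12 lost it in at least 1, and 0 turned direction. Among the 7 is Cluster-6671.22144, at 0 counts in the fertile clone. It passed the low-count filter through its sterile counts alone, so its kept call is no separate support. Leaving out each library gave 9 to 13 higher and 4 to 7 lower calls, with a median of 0.11 to 0.17. Shares over all regulators in these fits are not given here, so whether the changes in calls are particular to the members was not tested. The number higher was 21 with implied whole-library totals and 7 with DESeq2. The number lower was 4 with implied totals, 2 in limma on log2(FPKM + 1) and with pseudocounts of 0.1 and 5, and 3 in limma with no filter. The median was 0.18 with table totals, 0.27 with implied totals, 0.10 with no low-count filter, 0.24 in limma with or without its filter and 0.28 with a pseudocount of 0.1. The replicate block gave 13 higher and 6 lower calls with a median of 0.14. For it, for the changed pseudocounts and for limma with no filter, shares over all regulators are likewise not given. The replicate numbers share no deviation, and the block ended the call of Cluster-6671.10600. FHY3 was at -0.13 without fertile replicate 1, where it was called, and uncalled at 0.04 with table totals, 0.13 with implied totals, 0.14 in limma with or without its filter, 0.15 and 0.12 with pseudocounts of 0.1 and 5, 0.01 with the replicate block, 0.02 without sterile replicate 1, and 0.08 and 0.05 without fertile replicates 2 and 3. FAR1 (Cluster-6671.17476) was at -0.08 without fertile replicate 1, 0.03 with table totals, 0.12 with implied totals and in limma with or without its filter, 0.13 and 0.09 with those pseudocounts, and 0.06 without fertile replicate 3. PIF3 was at 0.07 with implied totals and in limma with or without its filter, and at 0.08 and 0.06 with those pseudocounts. The cause was not tested. Depth limits the members below 2 FPKM, which rest on at most 163 counts a group.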
